A study of Mus musculus with 10 samples.

Results

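Fibroblast growth factor (FGF) ligands were followed in bulk RNA-seq of the anterior fontanelle (AF), the membrane-covered gap between the frontal and parietal bones of the skull. The 6 genes *Fgf1*, *Fgf2*, *Fgf7*, *Fgf9*, *Fgf10* and *Fgf18* were chosen by symbol, out of 23080 genes listed in the table of counts, and all 6 passed the filter on low counts that left 16267 genes to test. Tissue came from mouse embryos at E18.5, with 5 control-labelled libraries (genotype label WT; the study's text calls the controls littermates) and 5 mutant-labelled libraries of genotype *Wnt1-Cre; Fgfr2fl/fl*. Wnt1-Cre drives Cre recombinase in the neural crest. By this design the floxed *Fgfr2* allele is meant to be recombined in cells of neural crest origin and not in other cells of the excised piece. That piece held suture connective tissue and bone but no skin or brain. The labels do not say whether the control embryos carried the floxed allele or the Cre transgene.

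FGF ligands are secreted proteins that bind receptor tyrosine kinases (FGFR) together with heparan sulfate, and they act mostly over short distances between neighbouring tissues. *Fgf1* and *Fgf2* encode the founding subfamily, which lacks a classical signal peptide; *Fgf7* and *Fgf10* encode mesenchymal ligands of the epithelial IIIb form of FGFR2; *Fgf9* and *Fgf18* encode ligands of the IIIc forms found in mesenchyme. In the developing skull vault, *Fgf2*, *Fgf9* and *Fgf18* are known as ligands of the sutures and of bone-forming cells, and *Fgfr2* is a main receptor of osteoblast precursors.

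Each ligand has its own chromosome. In the GENCODE M21 annotation of GRCm38, *Fgf2* spans chr3:37348346-37410108, *Fgf7* chr2:126034658-126091185, *Fgf9* chr14:58070547-58112720 and *Fgf10* chr13:118669791-118792115, all on the plus strand. *Fgf18*, on the minus strand, spans chr11:33117430-33147400. The exons of *Fgf2* share 640 bases with *Nudt6* on the opposite strand and 255 bases with *Gm43439* on the same strand, and those of *Fgf10* share 123 bases with *Gm16263* on the opposite strand. The libraries came from a stranded kit, but no source says that strand was used in counting, and to that extent the counts of *Fgf2* and *Fgf10* are uncertain.

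RefSeq promoters (GRCm38.p6) were matched for 5 of the 6 ligands, *Fgf1* excepted. Those of *Fgf18* and *Fgf9* are shown because they differ widely in base composition. Both ligands had higher mean levels in the mutant-labelled libraries, as had *Fgf2* and *Fgf10*. Each run is the 250 bases before the start that RefSeq annotates, which for *Fgf2*, *Fgf9* and *Fgf10* lies inside the GENCODE span given above, written 5′ to 3′ on the strand of the gene, with every CG dinucleotide in capitals.
Fgf18, chr11:33147401-33147650, minus strand: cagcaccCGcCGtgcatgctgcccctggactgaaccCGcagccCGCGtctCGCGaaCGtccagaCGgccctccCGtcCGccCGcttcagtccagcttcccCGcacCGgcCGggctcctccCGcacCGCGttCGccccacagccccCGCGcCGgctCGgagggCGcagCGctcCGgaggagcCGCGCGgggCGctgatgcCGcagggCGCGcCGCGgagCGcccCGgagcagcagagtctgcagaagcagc
Fgf9, chr14:58072436-58072685, plus strand: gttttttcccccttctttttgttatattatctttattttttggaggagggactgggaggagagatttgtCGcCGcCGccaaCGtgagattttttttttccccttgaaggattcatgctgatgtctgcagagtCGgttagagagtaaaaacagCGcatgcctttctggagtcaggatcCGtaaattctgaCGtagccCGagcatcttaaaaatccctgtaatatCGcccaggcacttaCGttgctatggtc
The *Fgf18* window was 77.2% G or C with 37 CG dinucleotides, and the *Fgf9* window was 44.8% with 11. The corresponding counts of CG dinucleotides were 20 for *Fgf2*, 6 for *Fgf7* and 8 for *Fgf10*, against a median of 6 over 32851 promoters of the same length. GGGCGG, the core of a GC box and itself the holder of a CG dinucleotide, was found on either strand in *Fgf2*, *Fgf10* and *Fgf18*, as in 32.7% of all promoters. CCAAT was found in *Fgf7* alone of the 5 (33.8% of all promoters), and TATAAA in none of them (12.4% of all promoters), and none of these motifs holds another. A match to these letters is a description of the window, and the RNA data do not bear on its use.

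The libraries held 20774667 to 28515434 counts, of which genes of ribosomal RNA took 18.7% to 33.6%. The targeted gene went against the label in direction. *Fgfr2* was at 176 to 235 CPM (library-scaled counts, TMM method of edgeR) in the control-labelled libraries and at 273 to 357 CPM in the mutant-labelled libraries. The groups did not overlap, and the log2 fold change was 0.67 (SE 0.09, adjusted p = 0.0487 by the quasi-likelihood test of edgeR, and 0.00900 to 0.260 with 1 library left out). Its exons share 314 bases with *Ctbp2* on the same strand, and a count over the whole gene does not separate transcripts of the recombined allele, so the count does not check the recombination. The principal component with the largest share of the variance (24.2%) set mutant-labelled replicate 2 apart from the other libraries.

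No ligand passed an adjusted p-value of 0.05 in edgeR, and the ligands with the lowest p-values had opposite signs. *Fgf1* had a lower mean level in the mutant-labelled libraries and *Fgf18* a higher one, and these were the 2 of 6 ligands with an unadjusted p-value under 0.05 when all libraries were used. Over all 16267 genes tested, 0.0184% passed the adjusted threshold and 7.49% had an unadjusted p-value under 0.05. DESeq2's Wald test placed 1 ligand, *Fgf1*, under an adjusted p of 0.05, where it called 0.564% of its 17213 genes, and limma's voom with quality weights placed none. The groups overlapped in CPM for all 6 ligands, where 1.48% of the genes tested did not. The log2 fold change was positive for 4 ligands and negative for 2, with a median of 0.11, against 0.0007 over all genes tested. In bulk tissue, fewer cells of a type and less RNA per cell cannot be told apart, and the p-values measure the spread between these libraries, described by the study as pairs of littermates whose membership is not given.

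**Figure D1:**
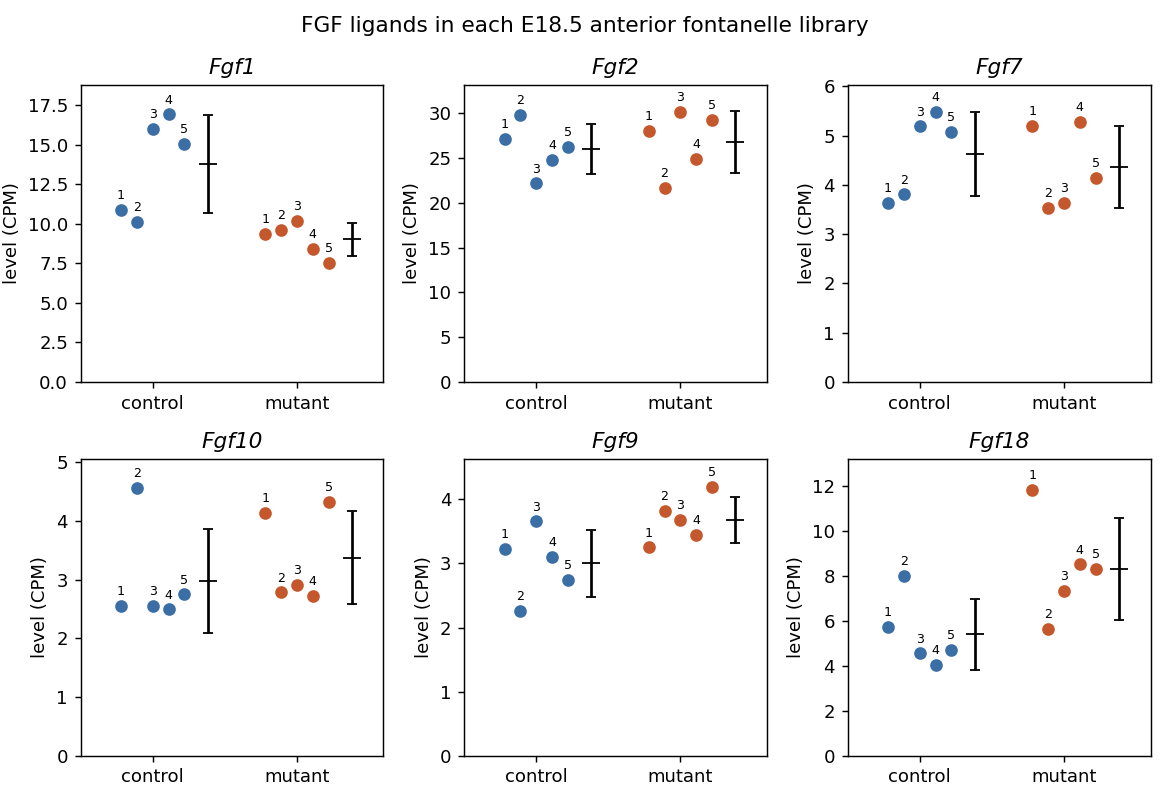
Level of each ligand in CPM (vertical axes, each from 0) in the 5 control-labelled and 5 mutant-labelled libraries. Points are libraries, numbered by replicate, and black bars give the mean and SD of a group; the 2 groups overlap for every ligand, by the least for *Fgf1*.

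Per length of exon, *Fgf18* and *Fgf2* were the most abundant of the ligands. In the control-labelled libraries, *Fgf18* was at 4.55 ± 1.33 CPM per kilobase of annotated exon and *Fgf2* at 3.84 ± 0.42 (SD, n = 5), and their ranges overlapped. *Fgf1* followed at 2.52 ± 0.57 CPM per kilobase, *Fgf7* at 1.43 ± 0.26, *Fgf10* at 0.648 ± 0.193 and *Fgf9* at 0.645 ± 0.113. The ranges of *Fgf2*, *Fgf1*, *Fgf7* and *Fgf10* did not overlap from one to the next, whereas those of *Fgf10* and *Fgf9* did.

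In the mutant-labelled libraries the distance between *Fgf18* and the rest was wider. *Fgf18* was at 7.01 ± 1.91 CPM per kilobase, with a lowest library at 4.76 that lay above the highest library of *Fgf2*, at 4.44. *Fgf1* was at 1.65 ± 0.19 CPM per kilobase there and its range overlapped that of *Fgf7*, at 1.34 ± 0.26. *Fgf9* at 0.791 ± 0.078 and *Fgf10* at 0.734 ± 0.171 overlapped each other again. With the length of the longest annotated transcript in place of all exons, *Fgf1* and *Fgf2* also overlapped in the control-labelled libraries, and the other statements of order held, except that *Fgf9* then had a higher mean than *Fgf10* in both groups.

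**Figure D2:**
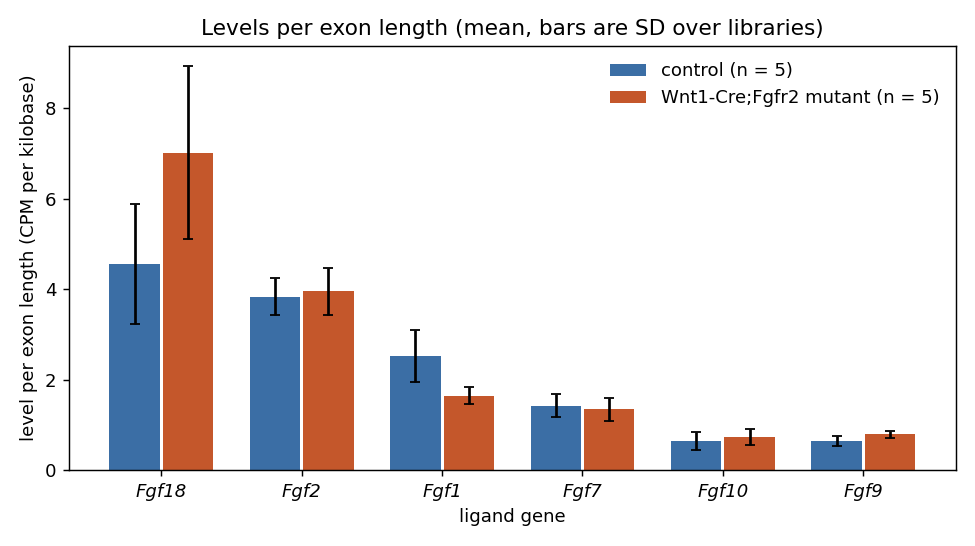
Mean level per exon length (vertical axis, CPM per kilobase of annotated exon, from 0) of each ligand in the control-labelled and mutant-labelled libraries, 5 each, with bars for the SD. *Fgf18* stands at 4.55 and 7.01, *Fgf1* at 2.52 and 1.65, and *Fgf2* at 3.84 and 3.95.

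As a share of the summed level per length of the 6 ligands, *Fgf18* made up 33.0% ± 6.8 in the control-labelled and 44.7% ± 5.3 in the mutant-labelled libraries (SD, n = 5). The share of *Fgf1* was 18.8% ± 5.1 and 10.9% ± 2.4, and the share of *Fgf2* 28.1% ± 1.9 and 25.7% ± 3.0. Ranges of the 2 groups overlapped for each of these shares. Shares add to the whole, so a larger one for *Fgf18* lowers the sum of the others by construction.

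In the founding subfamily, *Fgf1* had the negative fold change and *Fgf2* one near 0, and their log2 ratio overlapped between groups, at −1.56 to −0.47 in the control-labelled and −1.96 to −1.17 in the mutant-labelled libraries. *Fgf1*, a ligand that can bind all FGF receptors, lies on the minus strand at chr18:38838673-38929472. It was at 10.9, 10.1, 16.0, 16.9 and 15.1 CPM in control-labelled replicates 1 to 5. In mutant-labelled replicates 1 to 5 it was at 9.33, 9.62, 10.2, 8.38 and 7.51 CPM. Replicates 3, 4 and 5 of the controls were high, replicates 1 and 2 lay just above the mutant-labelled range or in it, and only control-labelled replicate 2 and mutant-labelled replicate 3 crossed. The summed level of 6 osteoclast markers was also highest in control-labelled replicates 3, 4 and 5, at 2758, 3485 and 2902 CPM, against 2169 and 2484 CPM in control-labelled replicates 1 and 2 and 2414 to 2707 CPM in the mutant-labelled libraries, and the part of osteoclasts in the *Fgf1* level was not tested. The log2 fold change of *Fgf1* was −0.61 (SE 0.152, 95% interval −0.94 to −0.28), with an unadjusted p = 0.0018 and an adjusted p = 0.336 in edgeR, rank 85 of the genes tested by p-value. An exact permutation test, two-sided and over every grouping of the libraries into 5 and 5, gave p = 0.0159 for log2 CPM, where 0.00794 is the smallest p the design allows. DESeq2 gave a log2 fold change of −0.61 with an adjusted p = 0.0393, while the adjusted p ranged from 0.224 to 0.725 over the other alternatives. Without mutant-labelled replicate 2 the log2 fold change in edgeR was −0.63 (adjusted p = 0.368). The counts behind these levels were 293 to 414 and 170 to 242 per library.

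*Fgf2*, long studied as a mitogen of suture and bone cells, was at 22.2 to 29.8 CPM with a median of 26.2 in the control-labelled libraries and at 21.7 to 30.1 CPM with a median of 28.0 in the mutant-labelled ones. The groups covered nearly the same range. The log2 fold change was 0.04 (SE 0.10, 95% interval −0.18 to 0.26; adjusted p = 0.952 in edgeR, exact permutation p = 0.714), and its sign turned with library size as the only scaling (−0.01). Without mutant-labelled replicate 2 it was 0.11. At 521 to 869 counts per library, *Fgf2* had the most counts of the 6 ligands.

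The ligands of the IIIb receptor form showed no difference larger than their spread. *Fgf7*, which signals from mesenchyme to epithelium, was at 3.63 to 5.48 CPM in the control-labelled and 3.54 to 5.28 CPM in the mutant-labelled libraries (log2 fold change −0.09, 95% interval −0.45 to 0.28; adjusted p = 0.937 in edgeR), which was −0.01 without mutant-labelled replicate 2. In both groups its libraries fell into a lower set at 3.54 to 3.81 CPM and a higher set at 5.07 to 5.48 CPM, with mutant-labelled replicate 5 between them at 4.15 CPM.

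*Fgf10*, a mesenchymal ligand needed for limb and lung formation, was at 2.56, 4.56, 2.55, 2.49 and 2.75 CPM in control-labelled replicates 1 to 5. It was at 4.13, 2.78, 2.91, 2.72 and 4.33 CPM in mutant-labelled replicates 1 to 5. Of the 10 libraries 7 lay at 2.49 to 2.91 CPM, and 1 control-labelled and 2 mutant-labelled libraries lay above 4 CPM. By label, its log2 fold change was 0.17 (SE 0.216, 95% interval −0.30 to 0.65; adjusted p = 0.888 in edgeR, exact permutation p = 0.294). Without control-labelled replicate 2 it was 0.39 (unadjusted p = 0.0529, adjusted p = 0.599 in edgeR), and without mutant-labelled replicate 5 it was 0.07. The summed level of 8 skeletal muscle markers was 717 CPM in control-labelled replicate 2 and 711 CPM in mutant-labelled replicate 1, against 18 to 141 CPM in the other 8 libraries, mutant-labelled replicate 5 included at 119 CPM. The part of muscle in the *Fgf10* level was not tested.

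*Fgf9*, a mesenchymal ligand with roles in long bone growth, was at 3.22, 2.26, 3.66, 3.11 and 2.75 CPM in control-labelled replicates 1 to 5. In mutant-labelled replicates 1 to 5 it was at 3.25, 3.82, 3.68, 3.45 and 4.19 CPM. Replicates 2, 3 and 5 of the mutant-labelled group lay above every control-labelled library, the last of these by the most. In edgeR the log2 fold change was 0.30 (SE 0.147, 95% interval −0.03 to 0.62) with an unadjusted p = 0.0686 and an adjusted p = 0.669, and the exact permutation test gave p = 0.0397. Without control-labelled replicate 3 it was 0.39 (unadjusted p = 0.0264, adjusted p = 0.767 in edgeR), and the unadjusted p reached 0.15 with another library left out. Its counts were low, at 65 to 96 per library.

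*Fgf18*, a ligand required for normal suture closure and bone formation in mice, had the largest positive fold change of the 6. It was at 5.75, 7.99, 4.55, 4.05 and 4.69 CPM in control-labelled replicates 1 to 5. In mutant-labelled replicates 1 to 5 it was at 11.8, 5.64, 7.32, 8.51 and 8.30 CPM. Mutant-labelled replicates 1, 4 and 5 lay above every control-labelled library, whereas mutant-labelled replicate 2 lay below control-labelled replicates 1 and 2. The highest *Fgf18* library of each group was also the one with the highest summed level of 4 hypodermis markers, at 271 CPM in control-labelled replicate 2 (144 to 226 CPM in the other 4) and 569 CPM in mutant-labelled replicate 1 (129 to 163 CPM in the other 4). Most of the hypodermis sum was *Dlk1*, at a mean of 167 CPM in the control-labelled and 187 CPM in the mutant-labelled libraries. Both libraries also had the highest skeletal muscle sums, at 717 and 711 CPM. The ectocranial mesenchyme markers *C1qtnf3* and *Igfbp3* differed, with the lowest control-labelled sum in control-labelled replicate 2 (318 CPM) and the highest sum in mutant-labelled replicate 1 (519 CPM). The part of these tissues in the *Fgf18* level was not tested. The log2 fold change of *Fgf18* was 0.62 (SE 0.218, 95% interval 0.14 to 1.09), with an unadjusted p = 0.0157 and an adjusted p = 0.568 in edgeR and an exact permutation p = 0.0397. Without mutant-labelled replicate 2 the log2 fold change was 0.73 (unadjusted p = 0.00422, adjusted p = 0.387 in edgeR), without mutant-labelled replicate 1 it was 0.47 (unadjusted p = 0.0429), and without control-labelled replicate 2 it was 0.81 (unadjusted p = 0.00181, adjusted p = 0.277).

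**Figure D3:**
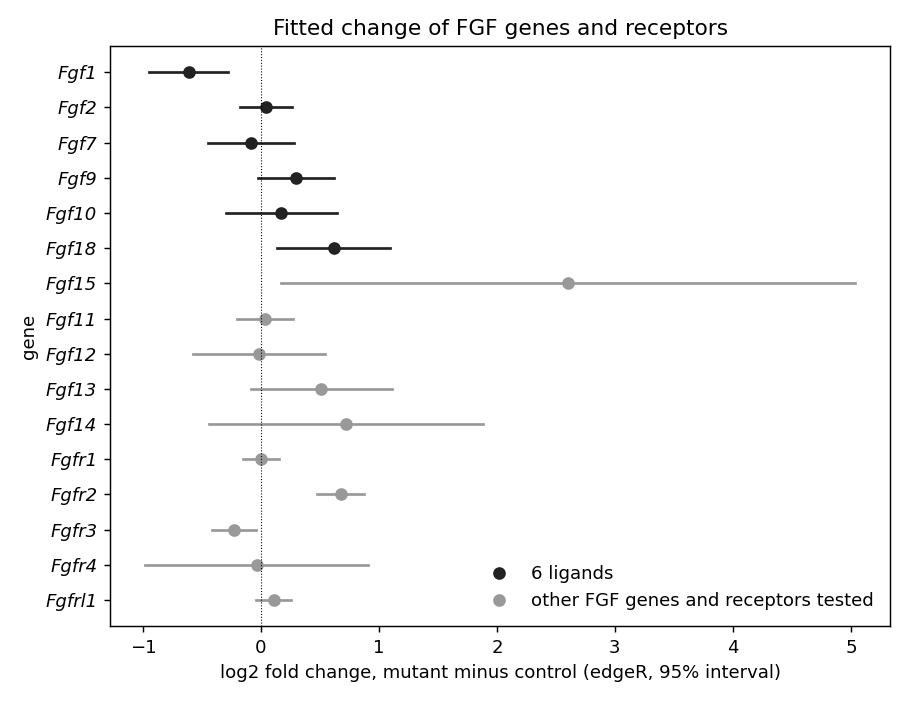
Log2 fold change of mutant-labelled minus control-labelled libraries (horizontal axis) with 95% intervals from edgeR, for the 6 ligands (black) and for the other FGF genes and receptors that passed the filter (grey). The intervals of *Fgf1*, *Fgf18*, *Fgf15*, *Fgfr2* and *Fgfr3* leave out 0, and only *Fgfr2* passed the adjusted threshold.

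Ratios within a library do not depend on the scaling between libraries. The log2 ratio of *Fgf1* to *Fgf18* counts was 1.36 ± 0.71 in the control-labelled and 0.15 ± 0.46 in the mutant-labelled libraries (SD, n = 5), a difference of −1.22. *Fgf1* had more counts than *Fgf18* in all 5 control-labelled libraries, and in mutant-labelled replicates 2 and 3 only. The groups still overlapped in this ratio. Of the 15 ratios between ligands, 1 did not overlap between groups, that of *Fgf1* to *Fgf9*, at 1.75 to 2.45 in the control-labelled and 0.84 to 1.52 in the mutant-labelled libraries. The ratio of *Fgf1* to each of 14678 other genes with at least 10 counts in every library did not overlap in 20.8% of cases, so this one is no result about *Fgf9*.

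*Fgf18* was high in the libraries where *Fgf1* was low. Across the 10 libraries the log2 CPM values of these 2 ligands had Pearson's r = −0.83 (permutation test with 100000 resamples, p = 0.00224, adjusted p = 0.0336 over the 15 pairs of ligands) and Spearman's rho = −0.88 (p = 0.0016, adjusted p = 0.024, same permutation test). Without the 2 libraries farthest from the median of *Fgf1*, r was −0.68. The permutation shuffled all 10 libraries without regard to group, so its p-values also take in the difference between the groups. As the group means of both ligands stand apart in opposite directions, the deviations from the group means were compared too. Their r was −0.66, without a test. The same r was 0.77 for *Fgf10* and *Fgf18*, the largest in size of the pairs, 0.67 for *Fgf2* and *Fgf18* and −0.64 for *Fgf9* and *Fgf18*. Groups of 5 are too small for a correlation of their own. By Pearson's r the pair with the next highest size was *Fgf10* and *Fgf18*, at r = 0.74 (permutation p = 0.014, adjusted p = 0.105) and rho = 0.68 (permutation p = 0.034, adjusted p = 0.128), and r was 0.83 without the 2 libraries farthest from the median of *Fgf10*. By Spearman's rho *Fgf2* and *Fgf10* came next at 0.70 (permutation p = 0.0304, adjusted p = 0.128; r = 0.64, permutation p = 0.0457, adjusted p = 0.229, and 0.69 without the 2 libraries farthest from the median of *Fgf2*).

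**Figure D4:**
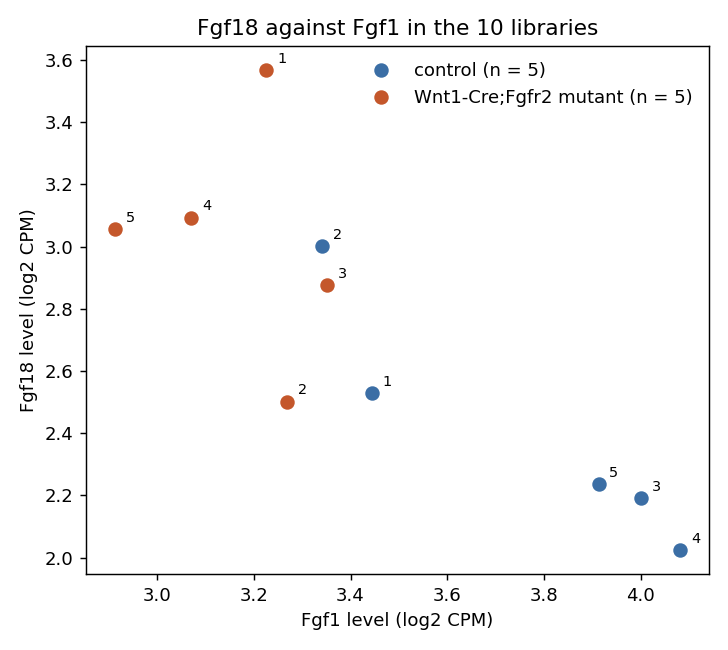
Level of *Fgf18* (vertical axis, log2 CPM) against *Fgf1* (horizontal axis, log2 CPM) in the 10 libraries, numbered by replicate. Control-labelled replicates 3, 4 and 5 lie at high *Fgf1* and low *Fgf18*, and of the controls only replicate 2 lies within the mutant-labelled range of *Fgf1* (r = −0.83).

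For each ligand, the 3 genes with the most similar pattern were taken by Pearson's r of log2 CPM over the 10 libraries, from 14478 genes with a mean of at least 1 CPM. With 10 libraries and that many genes, high values of r arise easily, and they are given as a description. *Fgf1* ran with *Ptp4a3* (r = 0.96), *Cd5* (0.95) and *Itga2* (0.95). *Fgf18* ran with *Fndc1* (0.96), *AW551984* (0.95) and *Thbs1* (0.95), the last being an extracellular matrix glycoprotein at 205 ± 37 CPM in the control-labelled and 277 ± 45 CPM in the mutant-labelled libraries. The nearest genes were *Golga3*, *Fzd7* and *Armcx2* for *Fgf2* (0.97, 0.96 and 0.95), and *Sipa1*, *Gm13736* and *Selplg* for *Fgf7* (0.98, 0.95 and 0.91). They were *Gcfc2*, *Purg* and *Mier1* for *Fgf9* (0.92, 0.90 and 0.87), and *Cilp*, *Klf5* and *Dchs2* for *Fgf10* (0.96, 0.96 and 0.93).

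The other secreted FGF genes were low. Of 18 secreted ligand genes looked for, 14 were listed in the table and 7 passed the filter, the 6 described here and *Fgf15*. *Fgf15*, an ileal and embryonic hormone-like ligand, was at 0.04 to 1.06 CPM in the control-labelled libraries and at 0.09 to 0.98 CPM in 4 mutant-labelled libraries, with mutant-labelled replicate 3 at 12.6 CPM. Its log2 fold change of 2.60 (unadjusted p = 0.0382, adjusted p = 0.650 in edgeR) rests on that library, and was 0.35 without it. *Fgf3*, *Fgf5*, *Fgf6*, *Fgf16*, *Fgf17*, *Fgf20* and *Fgf23* were listed with at most 20 counts in any library and did not pass the filter. *Fgf23*, the bone-derived hormone of phosphate balance, had 9 to 20 counts in the control-labelled and 2 to 13 in the mutant-labelled libraries.

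The intracellular FGF genes *Fgf11*, *Fgf12*, *Fgf13* and *Fgf14*, which act on ion channels and do not signal as secreted ligands, all passed the filter with log2 fold changes of 0.03, −0.01, 0.51 and 0.72, and with all libraries none had an unadjusted p-value under 0.05. *Fgf13* was at 4.86 to 5.97 CPM in the control-labelled libraries and reached 10.8 and 11.3 CPM in mutant-labelled replicates 1 and 2, and *Fgf14* reached 1.83 CPM in mutant-labelled replicate 2. Without that library the log2 fold change of *Fgf14* turned to −0.09. With 1 library left out, *Fgf13* lay between 0.33 (without mutant-labelled replicate 2) and 0.71 (without mutant-labelled replicate 3, unadjusted p = 0.00527, adjusted p = 0.488 in edgeR), and *Fgf12* between −0.14 and 0.21, on both sides of 0. The summed level of 7 neuron markers was 556 CPM in mutant-labelled replicate 2 and 66 to 221 CPM in the other 9 libraries, mutant-labelled replicate 1 included at 124 CPM. The part of nerve tissue in the levels of *Fgf13* and *Fgf14* was not tested.

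Among the receptors, *Fgfr1* was at 326 ± 12 and 326 ± 31 CPM in the control-labelled and mutant-labelled libraries (SD, n = 5), and *Fgfrl1*, a receptor without a kinase domain, at 26.4 ± 2.3 and 28.4 ± 1.6 CPM. The log2 fold change of *Fgfr3*, at 62.2 ± 8.5 and 53.1 ± 1.8 CPM, was −0.23 (unadjusted p = 0.0213, adjusted p = 0.624 in edgeR). With 1 library left out, the unadjusted p of *Fgfr3* in edgeR lay between 0.00036 and 0.0719. *Fgfr4* was under 1.3 CPM throughout. The remaining FGF pathway list of co-receptors, binding proteins, adaptors, kinases and feedback genes had 69 of 73 genes tested. In edgeR 0 of them passed the adjusted threshold, as in DESeq2 and limma's voom, against 0.0184% of all genes tested in edgeR. An unadjusted p-value under 0.05 in edgeR was found for 7.49% of all genes tested and for 1 gene of this list. This was *Fos*, an immediate early gene, at 12.9 to 31.3 CPM in the control-labelled and 8.31 to 15.2 CPM in the mutant-labelled libraries (log2 fold change −0.65, unadjusted p = 0.0252, adjusted p = 0.634 in edgeR). By sign 39 were higher and 30 lower, with a median log2 fold change of 0.01. Of the 17 feedback and target genes among them, 7 were higher and 10 lower by sign, with a median of −0.05. The feedback genes *Spry1*, *Spry2*, *Spry4*, *Dusp6*, *Etv4* and *Etv5*, common readouts of FGF signaling, had log2 fold changes of −0.13, 0.13, −0.05, −0.12, −0.30 and −0.16, each with an unadjusted p-value above 0.05.

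Marker lists of the cell types in the excised piece were read beside the ligands. Over all 16267 genes tested in edgeR, 8085 had a negative log2 fold change and 7.49% had an unadjusted p-value under 0.05. All 15 osteoblast genes had a negative log2 fold change (median −0.24, 8 of them with an unadjusted p-value under 0.05), while their summed level, led by the collagen I genes, overlapped at 100100 to 117600 CPM in the control-labelled and 82720 to 119800 CPM in the mutant-labelled libraries. Of 7 genes of fontanelle and tendon-like connective tissue, 5 had a positive fold change (median 0.31), 4 of them with an unadjusted p-value under 0.05, and 1 of the 2 lower ones also had. Their summed level overlapped and had the lower median in the mutant-labelled libraries, at 1744 against 1794 CPM, but most of that sum was *Tnc*, the lower gene with an unadjusted p-value under 0.05, at a mean of 1399 CPM in the control-labelled and 1178 CPM in the mutant-labelled libraries. Both ectocranial mesenchyme markers other than the ligands, *C1qtnf3* and *Igfbp3*, had positive fold changes (median 0.27). Of 6 chondrocyte markers tested 4 had a positive fold change (median 0.51), led in p-value by *Col2a1*, the collagen of cartilage, at 47.3 to 68.5 CPM in the control-labelled and 70.7 to 153 CPM in the mutant-labelled libraries (log2 fold change 0.88, adjusted p = 0.302 in edgeR). *Matn1* and *Matn3* had log2 fold changes of 1.19 and 1.03 at low levels. Their means were 0.79 and 0.46 CPM in the control-labelled and 1.84 and 0.94 CPM in the mutant-labelled libraries. *Acan* was at 0.15, and *Col11a2* and *Sox9* were at −0.18 and −0.01. The summed chondrocyte level had the lower median in the mutant-labelled libraries, at 1348 against 1509 CPM. All 7 neuron markers had a positive fold change (median 0.81), but their summed level had the lower median in the mutant-labelled libraries, at 142 against 152 CPM, with 556 CPM in mutant-labelled replicate 2. By sign 5 of 6 osteoclast markers (median −0.15) and 5 of 6 macrophage markers (median −0.14) had a negative fold change. Outside the osteoblast and connective tissue lists, an unadjusted p-value under 0.05 in edgeR was found for *C1qtnf3*, *Col2a1*, *Matn3* and *Rbfox3*, all higher. It was also found for *Calcr* (osteoclast), *Slc47a1* (meninges) and *Epcam* (epidermis), all lower. None of these marker genes passed the adjusted threshold in edgeR. Epidermal markers stayed at 13 to 36 CPM in sum in both groups. The part of these cell types in the ligand levels was not tested.

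**Figure D5:**
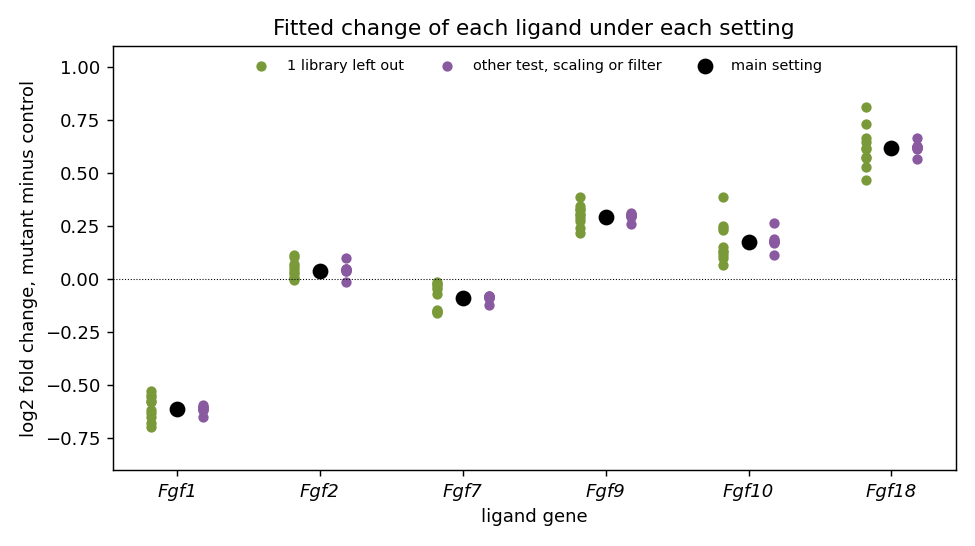
Log2 fold change of each ligand (vertical axis, mutant-labelled minus control-labelled) with all libraries and the main setting (black), with 1 library left out (green) and with another test, scaling or filter (purple). *Fgf1* stays between −0.70 and −0.53 and *Fgf18* between 0.47 and 0.81, while *Fgf2* lies on both sides of 0.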

How the data were processed

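RNA of the AF region of 5 control-labelled and 5 mutant-labelled mouse embryos was sequenced by the authors as single 50-base reads from stranded libraries. The deposited table holds estimated counts per gene, not scaled between libraries, of which 67.2% were whole (tolerance 1e-09), with a lowest sum of 10 per gene. The submitters' processing notes name Partek and mm10; the aligner, counter and strand setting are not given in the sources used here. Of 22533 symbols found in GENCODE M21, 22296 had its start and an end 1 base higher.

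The design assumed whole counts, so estimated counts were rounded. Genes were filtered with edgeR's filterByExpr (16267 kept, 6813 left out), given TMM scaling factors and tested with the quasi-likelihood test of edgeR on all 10 libraries, with Benjamini-Hochberg adjustment over all genes tested and a threshold of 0.05. A prior count of 0.5 was added for log2 CPM. Software was R 4.3.3, edgeR 4.0.16, limma 3.58.1 and DESeq2 1.42.0, and the fit was tested on simulated data. At 60 to 869 counts per ligand and library, counting error adds to the spread between libraries. Replicates of a group differed by more than sampling noise.

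The members and gene lists were chosen with earlier results of these data known. Named genes are the 6 ligands, the other FGF genes and receptors, list genes with an unadjusted p-value under 0.05, and the 3 genes nearest each ligand; the promoter motifs, the feedback genes and the markers were named outside this rule. Alternatives were scaling by library size alone or by DESeq2's size factors, no ribosomal RNA genes, DESeq2, limma's voom with quality weights, no filter or a floor of 10 counts per library, a block for the replicate number, thresholds of 0.1 adjusted or 0.05 unadjusted, leaving out each library, and the longest transcript as length.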

Additional observations from a re-analysis of the deposited data

Results flagged for a closer look

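In 30 FGF genes and 60 groups of 5 libraries, 6 groups held a library far from the others. The nominal rate is about 1 in 20, but the share over all genes tested was not taken, so the count is no result about FGF genes. *Fgf10* was at 4.56 CPM in control-labelled replicate 2 and at 2.49 to 2.75 CPM in the other 4. *Fgf15* was at 12.6 CPM in mutant-labelled replicate 3 and at 0.0929 to 0.979 CPM in the others, the widest of these gaps in relative terms. In the same library *Fgf11* was at 6.38 CPM, with the others at 5.43 to 5.68 CPM. In mutant-labelled replicate 2 *Fgf14* was at 1.83 CPM, with the others at 0.265 to 0.556 CPM, and *Fgfr1* was at 273 CPM, with the others at 325 to 346 CPM. *Fgfr3* was at 50.1 CPM in mutant-labelled replicate 4, with the others at 53.3 to 54.5 CPM.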

How the results depend on the processing

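Under 8 alternatives of test, scaling, filter or block and with each of 10 libraries left out, *Fgf1* and *Fgf7* kept a negative and *Fgf9*, *Fgf10* and *Fgf18* a positive log2 fold change. *Fgf2* turned negative with library size only (−0.012) and without control replicate 3 (−0.0020), and lay between −0.0020 and 0.11 with 1 library left out. The leave-one-out ranges were −0.70 to −0.53 for *Fgf1*, −0.16 to −0.01 for *Fgf7*, 0.22 to 0.39 for *Fgf9*, 0.07 to 0.39 for *Fgf10* and 0.47 to 0.81 for *Fgf18*. The count of ligands at an adjusted p under 0.05 was 0, and 1 with DESeq2's Wald test, where *Fgf1* was at −0.61 (adjusted p = 0.0393); it was 2 with the unadjusted threshold. The count of all genes called was 3, against 97 with DESeq2's Wald test, 1 with library size only, 1219 with the unadjusted threshold and 1 to 6 with 1 library left out, the highest without mutant-labelled replicate 2; the cause was not tested. With the replicate number as a block the count was 1, and *Fgf1* was at −0.59 (adjusted p = 0.549 in edgeR with the replicate block). The study speaks of littermate pairs, whose membership the labels do not give, and a shared number was not taken for a pair: same-numbered correlations of deviations lay between −0.21 and 0.14, and 0 of 10 libraries correlated best with its own number. Control levels per kilobase of the longest transcript were 3.46 for *Fgf1*, 4.36 for *Fgf2*, 1.74 for *Fgf7* and 0.835 for *Fgf9*, each higher than with all exons by more than 1 SD. Depth limits *Fgf9* and *Fgf10* most, at under 100 counts in all libraries but 1.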
